A study of Mus musculus with 321 samples.

Results

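The developmental transcription factor families outside the Hox clusters were followed in these data: 9 Pax, 8 Lhx, 5 sine oculis-type (Six2 to Six6), 8 Nkx, 6 Dlx, 6 Irx and 8 Tbx genes, 50 listed genes of 21887 protein-coding genes. The genes were taken from a list of names. The rule itself uses no measured value, but the list was drawn up with earlier results of these data known. ATAC-seq, which marks open chromatin, was made from mouse CD4+CD8+ double-positive (DP) thymocytes and from NIH3T3, an established fibroblast line (strain NIH/Swiss, passages 8 to 12). The DP cells were sorted from animals and are described as C56BL/6 (WT), with 2 libraries, or as TCF-1-/- deltaVII, here called Tcf-1 KO, with 2 libraries. The NIH3T3 cells carried an empty retrovirus (Empty RV, 4 libraries) or a retrovirus with Tcf-1 (Tcf-1 RV, 4 libraries). In both groups the file names tag replicates 1 and 2 as day 2 and replicates 3 and 4 as day 4. The groups of 4 pool both tags. H3K27me3 and H3K9me3 ChIP-seq, with 2 libraries each, came from NIH3T3 cells whose labels name no retrovirus. Tcf-1 ChIP-seq came from Tcf-1 RV cells as 1 pooled list of summits, whose file name carries a day 2 tag. Below, these summits are set against ATAC libraries of both tags. The labels do not say whether replicates were separate animals or cultures, so every p below measures only the spread between these libraries.

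These proteins bind DNA through a paired domain (Pax), a T-box (Tbx) or a homeodomain (the other families and several Pax), and each is best known for building a particular organ in the embryo. In cells of other lineages such genes are the textbook targets of Polycomb complexes, which place H3K27me3 over long stretches of chromatin. H3K9me3 is a separate repressive mark, best known from repeats and heterochromatin. Tcf-1, encoded by Tcf7, is an HMG-box factor of the T lineage that reads short CTTTG letters in DNA.

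Tcf7 itself, the gene lost or supplied, had 2 peaks within 10 kb in each WT and 1 in each KO library. In NIH3T3 it had 1, 1, 2 and 5 peaks in Empty RV replicates 1 to 4 and 7, 8, 6 and 7 in Tcf-1 RV. The supplied Tcf-1 sequence and the cell's own Tcf7 gene were not told apart in these counts. Of 14 fibroblast marker genes, 13 or 14 had a peak in every NIH3T3 library. Of 12 thymocyte marker genes, all 12 had one in both WT libraries, against 6 and 11 in KO. In the NIH3T3 libraries 7 to 9 of these 12 had a peak too, and in WT 4 and 10 of the 14 fibroblast markers did. The peak lists differed in length, from 22778 to 58026 peaks in Empty RV, 36583 to 62639 in Tcf-1 RV, 23249 and 30985 in WT, and 11171 and 12209 in KO. They hold positions and no heights, and their read depth is unknown.

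Promoter sequences of RefSeq (GRCm38.p6, from 250 bases before to 50 after a start) were found for 35 of the 50 genes, 44 promoters in all. Of these, 5 are shown, each standing for a chromatin state met below. The Lhx4 promoter (chr1:155741978-155742277, minus strand) is the only one of the 44 with the letters searched for Tcf-1, which are in capitals. The other 4 have every CG pair in capitals: the second Lhx2 promoter (chr2:38351058-38351357, plus), open in both WT DP libraries; the Irx2 promoter (chr13:72628570-72628869, plus), open in all 8 NIH3T3 libraries; the Nkx6-2 promoter (chr7:139582748-139583047, minus), inside H3K9me3; and the Six6 promoter (chr12:72939632-72939931, plus), inside H3K27me3. All are written 5′ to 3′ along the gene.
Lhx4: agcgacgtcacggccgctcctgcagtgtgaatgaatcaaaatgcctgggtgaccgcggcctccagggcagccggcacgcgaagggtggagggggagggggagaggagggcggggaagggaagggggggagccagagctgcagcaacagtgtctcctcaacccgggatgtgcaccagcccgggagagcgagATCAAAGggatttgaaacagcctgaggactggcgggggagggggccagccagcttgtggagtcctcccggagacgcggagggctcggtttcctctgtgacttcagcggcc
Lhx2: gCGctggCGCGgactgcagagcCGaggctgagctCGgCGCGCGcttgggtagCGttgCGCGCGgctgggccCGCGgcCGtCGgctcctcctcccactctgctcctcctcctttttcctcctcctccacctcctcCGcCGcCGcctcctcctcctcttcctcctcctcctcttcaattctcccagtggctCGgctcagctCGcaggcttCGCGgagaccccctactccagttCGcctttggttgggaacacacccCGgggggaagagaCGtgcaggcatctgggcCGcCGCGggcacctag
Irx2: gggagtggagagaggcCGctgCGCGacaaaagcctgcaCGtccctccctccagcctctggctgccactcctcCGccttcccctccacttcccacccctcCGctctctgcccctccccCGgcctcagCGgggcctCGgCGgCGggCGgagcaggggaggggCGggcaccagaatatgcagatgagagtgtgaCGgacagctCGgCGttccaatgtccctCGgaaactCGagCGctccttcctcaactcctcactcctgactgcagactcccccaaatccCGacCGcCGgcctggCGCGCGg
Nkx6-2: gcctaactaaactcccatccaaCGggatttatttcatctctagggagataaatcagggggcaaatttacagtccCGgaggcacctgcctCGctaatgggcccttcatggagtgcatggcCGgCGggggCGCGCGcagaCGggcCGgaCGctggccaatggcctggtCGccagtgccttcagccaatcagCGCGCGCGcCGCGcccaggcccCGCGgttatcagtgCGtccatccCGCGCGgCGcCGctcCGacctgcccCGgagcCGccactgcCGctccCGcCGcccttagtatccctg
Six6: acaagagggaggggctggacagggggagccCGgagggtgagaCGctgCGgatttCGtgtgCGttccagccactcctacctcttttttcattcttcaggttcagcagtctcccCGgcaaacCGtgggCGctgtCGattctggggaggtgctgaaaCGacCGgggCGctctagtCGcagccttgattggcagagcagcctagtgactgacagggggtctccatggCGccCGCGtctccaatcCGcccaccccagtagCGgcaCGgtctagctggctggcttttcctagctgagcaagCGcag

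The promoters were rich in CG pairs. Their median was 17 pairs in 300 bases, against 13 over 21263 promoters of protein-coding genes, and 31 of the 44 (70.5%) held at least 15, against 46.8% of all. Nkx6-1, a homeodomain gene of pancreatic beta cells and the ventral spinal cord, had the most, 40. Among promoters with at least 15 pairs, 6 of 31 (19.4%) overlapped an ATAC peak in all 4 Empty RV libraries, against 53.2% of such promoters in all genes, and 12 of 31 (38.7%) lay in H3K27me3 islands of both replicates, against 7.78%. Outside H3K27me3, 6 of 19 (31.6%) were open, against 57.6%. So the genes had CG-rich promoters that were seldom called open in these fibroblasts. CTTTGAA or CTTTGAT, on either strand, occurred in 1 of the 44 promoters (2.27%) and in 7.57% of all. A match is only a run of letters, and its absence concerns this window alone.

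H3K27me3 lay over most of these genes. An island of the mark, a stretch the authors called with SICER, touched the gene in both replicates for 34 of 50 (68%), while 24.7% of all protein-coding genes met that rule. The median share of a gene's length inside islands, averaged over the replicates, was 61.9% for the 50 genes and 0% over all genes. In all, 26 genes had at least 50% of their length covered in both replicates, a rule met by 12.3% of all genes, and 10 were covered whole: Dlx3, Dlx4, Irx6, Lhx1, Lhx2, Nkx2-3, Nkx2-5, Pax3, Pax4 and Six6. Another 15 had no island in either replicate. The shares of all genes covered whole, or without an island in either replicate, were not counted. Another list of 74 developmental transcription factors had a like share, 49 genes or 66.2%. Of 14 fibroblast markers none was covered in both replicates, and of 12 thymocyte markers all 12 were. Over 34 genes of the Polycomb machinery the count was 5.

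**Figure D1:**
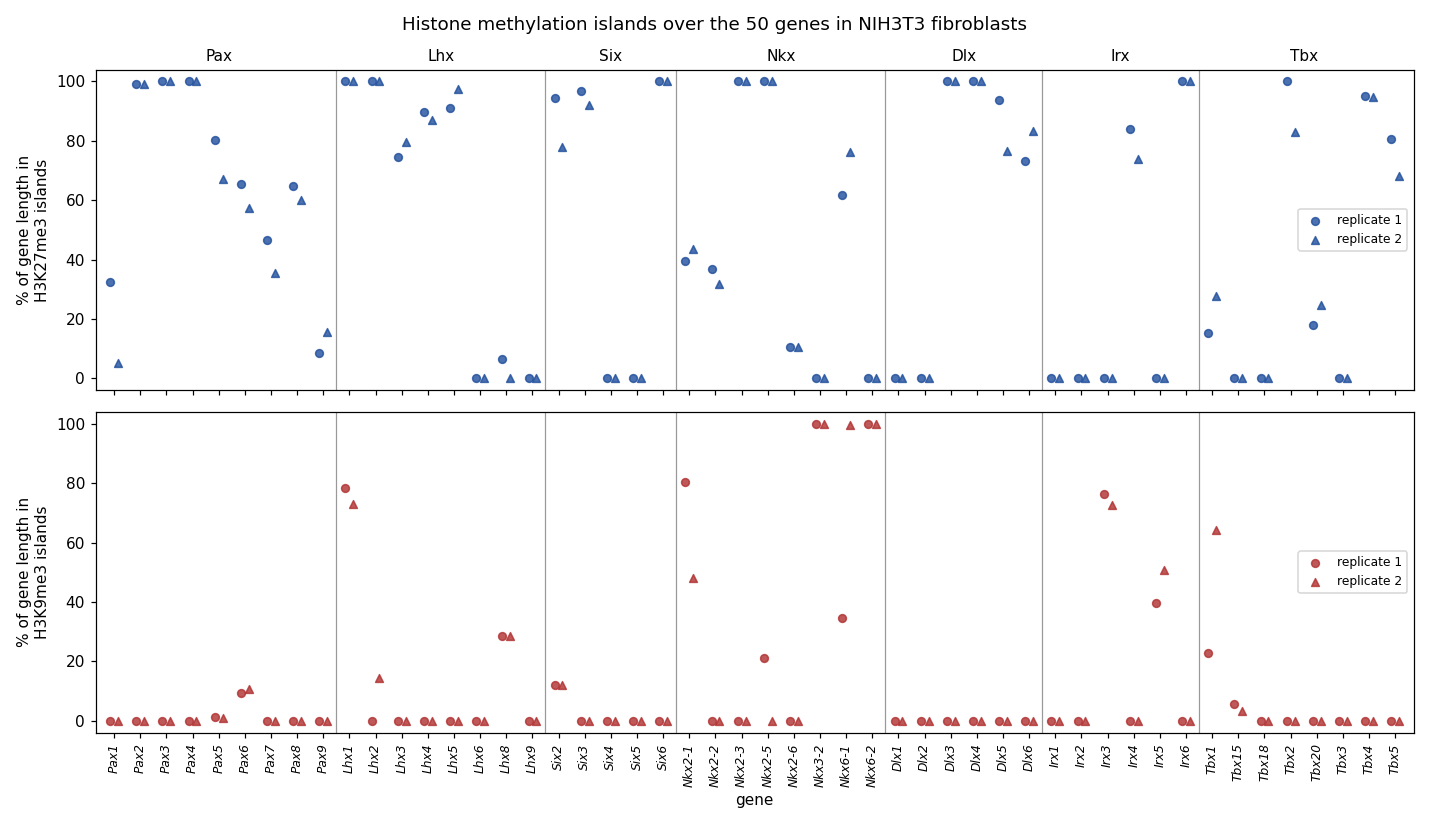
Share of each gene's length (percent, vertical axis) inside H3K27me3 islands (top) and H3K9me3 islands (bottom) in NIH3T3, for the 50 genes in family order; circles are replicate 1 and triangles replicate 2. In the top panel 10 genes sit at 100 in both replicates and 15 at 0, while in the bottom panel Nkx3-2 and Nkx6-2 alone sit at 100 in both.

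All 9 Pax genes carried the mark. Pax3, which specifies neural crest and muscle progenitors, lay whole inside a single island of 128.8 kb in replicate 1 and 115.8 kb in replicate 2, wider than 99.99% of all H3K27me3 islands in both. Pax2, a kidney and eye factor, had 99.1% cover in each replicate, with its widest island 94.2 and 110.2 kb long. Pax5, the B lineage factor, was covered over 80.3% and 67.3% of its 185.9 kb, and Pax7, of muscle stem cells, over 46.6% and 35.4%. The lowest cover belonged to Pax1 (32.5% and 5.11%), of the sclerotome, and Pax9 (8.51% and 15.6%), of pharyngeal pouches and teeth. The family thus ran from genes wholly inside the mark to genes with a small part inside it.

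The LIM, sine oculis and NK homeobox genes were split. Among LIM-homeodomain genes, Lhx1, Lhx2, Lhx3, Lhx4 and Lhx5, known from the head organiser, forebrain, eye and pituitary, were covered over 74.5% to 100% in replicate 1 and 79.5% to 100% in replicate 2. Lhx6 and Lhx9 had no island, and Lhx8 had one in replicate 1 alone, over 6.59% of the gene. Within the family Lhx5 had the highest fold of ChIP over control, a value of the authors, 4.79 and 4.36, above 99.9% and 99.7% of all islands. Among sine oculis homeobox genes, Six2 (nephron progenitors), Six3 and Six6 (eye and forebrain) were covered over at least 77.8%, and Six4 and Six5 not at all. Of 8 Nkx genes, 6 were called, with cover from 10.6% in both replicates at Nkx2-6 to 100% at Nkx2-5, the cardiac factor, and Nkx2-3, of spleen and gut.

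The Dlx and Irx genes sit in pairs or clusters. The 2 genes of a Dlx pair were alike in cover, and the Irx genes of a cluster differed. Dlx3 and Dlx4 were covered whole and shared 1 island of 70.2 kb in replicate 2, whereas replicate 1 split them into islands of 11.8 and 37.2 kb. Dlx5 and Dlx6 were covered over 73.3% to 93.7%. Dlx1 and Dlx2, the third such pair, had none. On chromosome 13 Irx1 and Irx2 had no H3K27me3 and Irx4 had 83.9% and 74%. On chromosome 8 Irx3 and Irx5 had none and Irx6 had 100% in both, within islands of 52.2 and 52 kb. In both Iroquois clusters, therefore, 2 genes were free of the mark and the third was not.

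Of 8 T-box genes, 5 were covered. Tbx4 and Tbx5, of the hind limb and of the forelimb and heart, had 95% and 94.6% cover and 80.6% and 68.2% cover. Tbx2 had 100% and 82.8%, Tbx1 of the pharyngeal arches 15.4% and 27.8%, and Tbx20 of the heart 17.9% and 24.7%. The fold at Tbx5 reached 4.78 and 4.86, above 99.9% of all islands in both replicates. Tbx3, Tbx15 and Tbx18, the latter pair known from mesenchyme of the skeleton and of several organs, had no island. Among relatives outside the 50 genes, Tbx21, the T-box factor of type 1 helper T cells, was covered over 100% and 95.4%, and Eomes over 0% and 22.8%.

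H3K9me3 was rarer. It touched 13 of the 50 genes in both replicates (26%), where 21.4% of all genes met the rule, so the share was near the background. At 8 an island reached either end of the gene, against 9.47% of all genes. With at least 50% cover in both replicates there were 4, against 5.04% of all genes: Nkx3-2 and Nkx6-2 with 100% in each, Lhx1 with 78.5% and 73.2%, and Irx3 with 76.3% and 72.8%. The Nkx6-2 island, 6.00 and 6.40 kb long, had a fold of 8.08 and 7.24, above 99.8% of all H3K9me3 islands in both replicates. At Nkx3-2, a gene of the axial skeleton, islands of 7.20 kb in both replicates had folds of 3.17 and 2.68. Of the 13, 6 were not called for H3K27me3 (Irx3, Irx5, Lhx8, Nkx3-2, Nkx6-2 and Tbx15). The other 7 (14%, against 6.42% of all genes) carried both marks somewhere along the gene: Lhx1, Nkx2-1, Nkx6-1, Pax5, Pax6, Six2 and Tbx1. Whether both lie on the same molecules cannot be read from separate libraries. Another 10 genes (20%, against 60.3% of all) were called for neither mark.

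A covered gene was not always covered at its promoter. Of the 23 genes with H3K27me3 in both replicates and a promoter in the table, 14 had a promoter inside islands of both replicates. Over all genes, 2307 of the 17492 with a promoter in the table had one inside such islands. That share was not counted among all covered genes, so the 14 of 23 has no background. At the other 9 of the 23 (Irx4, Lhx3, Nkx2-2, Nkx6-1, Pax1, Pax9, Six2, Six3 and Tbx20) no listed promoter met islands of both replicates. An island of a single replicate did reach a promoter at Six3 (replicate 1) and Lhx3 (replicate 2). Of the 44 promoters 17 (38.6%) lay in H3K27me3, against 12.5% of all, and 6 (13.6%) in H3K9me3, against 6.12%. None of those 17 was open in all 4 Empty RV libraries, and 16 were open in none of them. Over all genes, of 2668 promoters in H3K27me3, 14 were open in all 4 and 2556 in none, so the 17 were near the background. The Six6 promoter printed above is one of the 16.

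Open chromatin lay mostly at the genes not called for H3K27me3. A peak lay within 10 kb in every Empty RV library for 18 of 50 genes (36%), where 55.7% of all genes met that rule. Within 50 kb it was 31 genes, and 73.4% of all genes. In these bulk libraries fewer open cells and less open chromatin per cell cannot be told apart. Of those 18, 14 were among the 16 genes not called for H3K27me3, and 4 were among the 34 called: Lhx1, Nkx2-2, Pax8 and Pax9. Put as shares, 87.5% of the genes not called for the mark and 11.8% of those called had such a peak, against 60.3% and 41.8% over all genes. The same shares were 28% and 10.2% in the list of 74 other developmental transcription factors. In 18 relatives outside the 50 genes they were 37.5% and 30%. The 12 genes with no peak in any of the 8 NIH3T3 libraries (Dlx6, Irx4, Irx6, Lhx3, Nkx2-6, Pax1, Pax2, Pax3, Pax5, Pax6, Pax7 and Tbx20) all carried H3K27me3. They were 24% of the 50, near the 23.1% of all genes without a peak there. The exceptions on the other side were Lhx8 and Nkx3-2, not called for H3K27me3 and without a peak in Empty RV replicate 1. Both had H3K9me3. The median length of the 50 genes was 9.73 kb, against 17.2 kb over all genes, and a longer gene has a longer window in which to meet a peak.

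**Figure D2:**
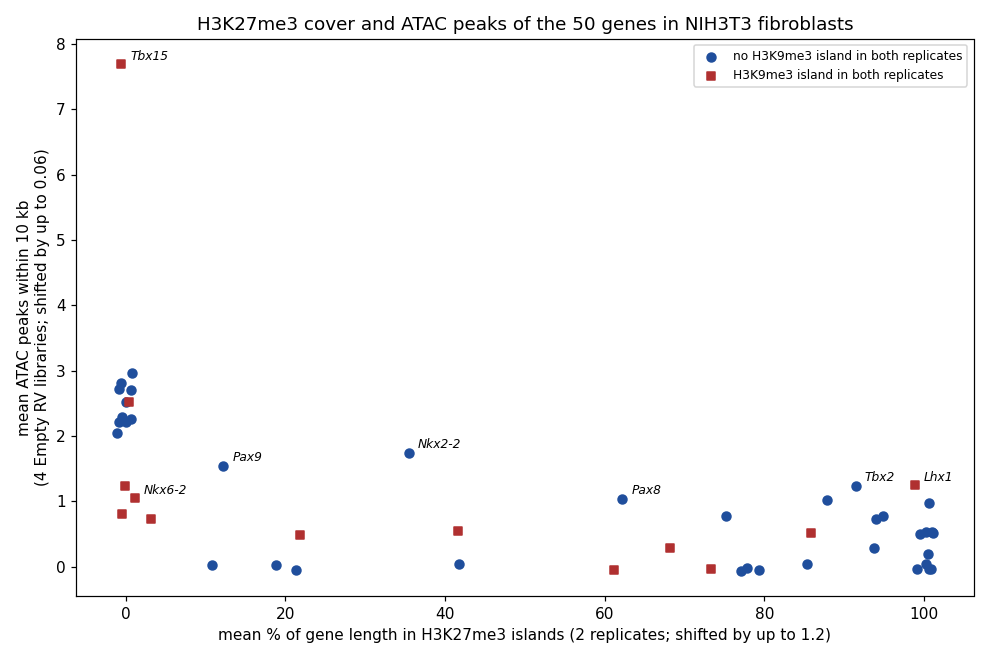
Mean share of gene length in H3K27me3 islands (percent, horizontal axis, 2 replicates) against the mean number of ATAC peaks within 10 kb in the 4 Empty RV libraries (vertical axis), 1 point per gene, with red squares for genes with an H3K9me3 island in both replicates; points are shifted slightly so that they do not hide each other. Tbx15 stands highest with a mean of 7.75 peaks and no H3K27me3, while the 10 genes covered whole have means of at most 1.25.

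Tbx15 was the most open of the 50 genes in fibroblasts. It had 3, 7, 9 and 12 peaks in Empty RV replicates 1 to 4 and 9, 7, 6 and 14 in Tcf-1 RV, in a window around a gene of 113.9 kb. The longest lists held the highest counts and the shortest the lowest, and the groups overlapped. The mean was 7.75 ± 3.77 (SD, n = 4) in Empty RV and 9 ± 3.56 (SD, n = 4) in Tcf-1 RV (exact two-sided permutation p = 0.743 before adjustment). Of its 16 merged regions, 3 were held by all 8 libraries. Lhx9, a gonadal and brain factor, had 1, 2, 4 and 4 peaks in Empty RV and 4, 3, 3 and 5 in Tcf-1 RV. Six4 had the same numbers as Lhx9 in every NIH3T3 library. The Lhx9 window also holds 2310009B15Rik and the Six4 window Mnat1. Six5, whose window also holds Dmpk and Bhmg1, had 2, 2, 2 and 5 against 2, 2, 1 and 4. By mean peak number in Empty RV, Tbx15 was followed by Tbx18 with 3, and then by Lhx9, Six4 and Six5 with 2.75 each.

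The open Dlx and Irx genes had means of at most 2.5 peaks in Empty RV. Dlx1, whose window also holds Metap1d, had 2, 2, 2 and 4 peaks in Empty RV and 2, 2, 2 and 3 in Tcf-1 RV. Its neighbour Dlx2, part of the same window, had 1, 1, 2 and 5 against 2, 1, 1 and 3. Irx1 had 1, 2, 3 and 2 against 1, 2, 1 and 4, and Irx2 2, 3, 2 and 2 against 3, 2, 2 and 2. The Irx2 promoter with its 25 CG pairs was among 8 of the 44 promoters open in all 4 Empty RV libraries (18.2%, against 30.6% of all). Irx5 had 3, 2, 2 and 3 peaks against 2, 3, 2 and 3. Irx3 had 2, 1, 1 and 1 against 2, 2, 2 and 1, although H3K9me3 covered most of the gene, and its promoter window was open in all 8 libraries. None of these genes separated the groups of libraries.

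Among T-box genes peak numbers were higher at those without H3K27me3. Tbx18 had 2, 3, 3 and 4 peaks in Empty RV and 2, 2, 2 and 3 in Tcf-1 RV, and Tbx3 had 1, 3, 3 and 2 against 3, 2, 1 and 3. Of the covered genes, Tbx2 had 0, 0, 2 and 3 against 2, 2, 0 and 3, and Tbx1 had 0, 0, 0 and 2 against 0, 1, 0 and 2. Tbx4 had 0, 1, 1 and 1 against 0, 1, 0 and 1, and Tbx5 had 0, 1, 1 and 1 against 1, 1, 0 and 1. Tbx20 had no peak in any library. The covered genes thus had peaks chiefly in the longer lists.

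The 10 genes covered whole had 0 to 2 peaks in every NIH3T3 library. Pax3 and Irx6 had none. Dlx4 had 1 peak, in Tcf-1 RV replicate 4, and Dlx3 had 0, 0, 1 and 1 in Empty RV and 0, 0, 0 and 1 in Tcf-1 RV. Lhx2 had 0, 1, 1 and 2 against 1, 1, 0 and 1, and Nkx2-3 had 0, 1, 0 and 1 against 2, 1, 0 and 2. Nkx2-5, Pax4 and Six6 had 0 or 1 peak in each library. Lhx1 alone of the 10 had a peak in every library, with 1, 1, 1 and 2 in both groups, and its window also holds Aatf. Nkx6-2, under H3K9me3, had 1, 1, 1 and 1 against 1, 1, 0 and 1, in a window shared with Inpp5a. Nkx3-2 had 0, 1, 1 and 1 against 1, 2, 1 and 2.

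**Figure D3:**
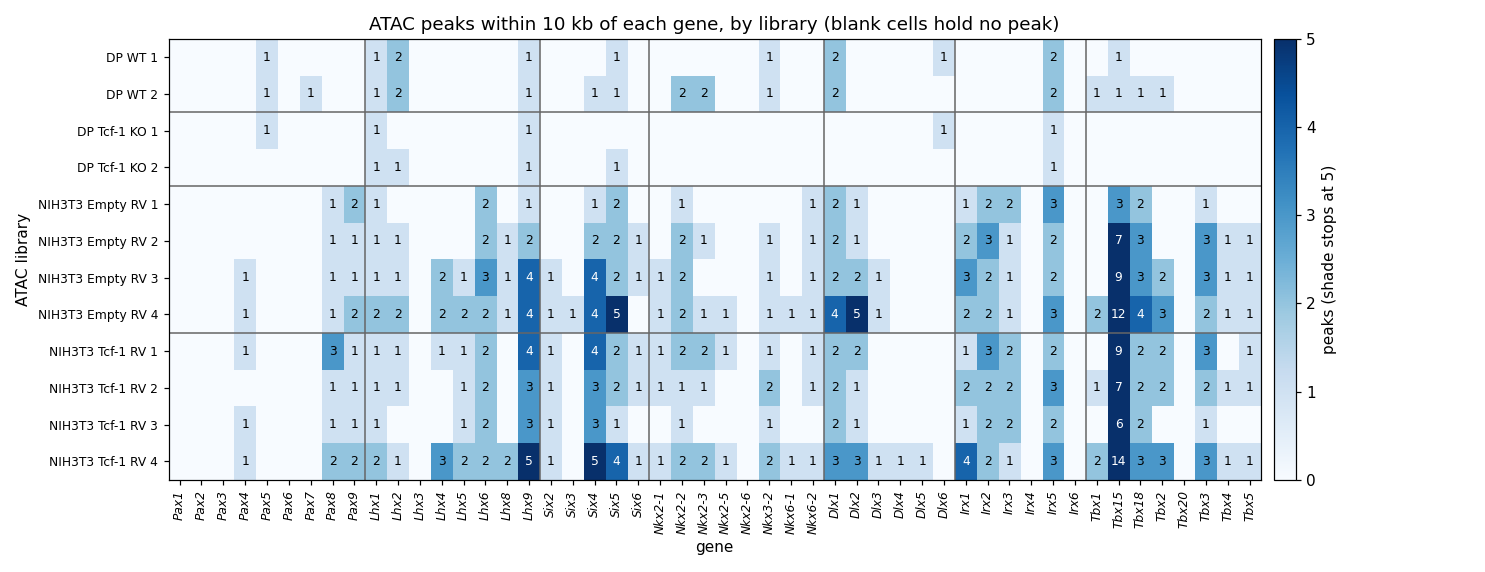
Number of ATAC peaks within 10 kb of each of the 50 genes (columns, by family) in each of the 12 libraries (rows); the number is printed in the cell, blank cells hold 0 and the shade stops at 5. Tbx15 holds 3 to 14 peaks in NIH3T3, and most columns are blank in the 4 thymocyte rows.

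The NIH3T3 comparison asks whether Tcf-1 supplied to fibroblasts opens or closes chromatin at these genes. No gene of the 50 had more peaks in every Tcf-1 RV library than in any Empty RV library, and none had fewer. Over the 16838 genes with a peak in any of the 8 libraries, 0.784% were higher and 0.0594% lower by this rule, so 0 of the 38 listed genes among them is near the background. An exact two-sided permutation test cannot go below 0.0286 for 4 against 4, and after Benjamini-Hochberg adjustment no gene passed (smallest adjusted p = 1). Before adjustment, none of the 38 was below 0.05, whereas every gene counted in those shares was. limma on log2(peaks + 1) called 56 of the 16838 genes at an adjusted p below 0.05, 47 higher and 9 lower, and none of the 38, whose smallest adjusted p was 0.830 and of which 0 had an unadjusted p below 0.05.

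The differences were small in both directions. Mean peak numbers were higher in Tcf-1 RV for 17 genes, lower for 13 and equal for 8, and ran from -0.75 to 1.25 peaks. On the log2 scale 17 were above 0 and 15 below, whereas 63.7% of all genes were above and 18.4% below. On the log2(peaks + 1) scale the median change was 0 for the 38 genes and 0.15 over all genes. The largest log2 changes were equal, at Nkx3-2, 0.54 ± 0.29 (SE), and Nkx2-3, 0.54 ± 0.46 (SE), both with an adjusted p of 0.830 by limma. Of 99 merged regions near the 50 genes, 23 were held by all 8 libraries (18682 of 77882 over the genome) and none by one group whole and the other not at all, while 839 regions of the genome were held by all Tcf-1 RV and no Empty RV library and 86 the reverse. Within the replicates whose file names carry a day 2 tag, 6 genes had more peaks in both Tcf-1 RV than in either Empty RV library: Lhx5, Lhx9, Nkx2-1, Six2, Six4 and Tbx2. Within the day 4 tag there were 0, and 1.57% of all genes met that rule. Under the day 2 tag the Tcf-1 RV lists were also the longer ones (47623 and 43527 peaks against 22778 and 34601), and over all genes 22% met the day 2 rule. By mean peak number, 20 of the 50 genes were higher and 3 lower in Tcf-1 RV under the day 2 tag. Under the day 4 tag 6 were higher and 17 lower. The day 4 lists held 36583 and 62639 peaks in Tcf-1 RV and 46819 and 58026 in Empty RV. With both Tcf-1 RV libraries below either Empty RV library, 0.288% of all genes were lower under day 2 and 2.97% under day 4. Of the 50 genes, 0 were lower by that rule under either tag. The counts by mean peak number were not made over all genes. The part of list length in the day 2 genes and in these counts was not tested.

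**Figure D4:**
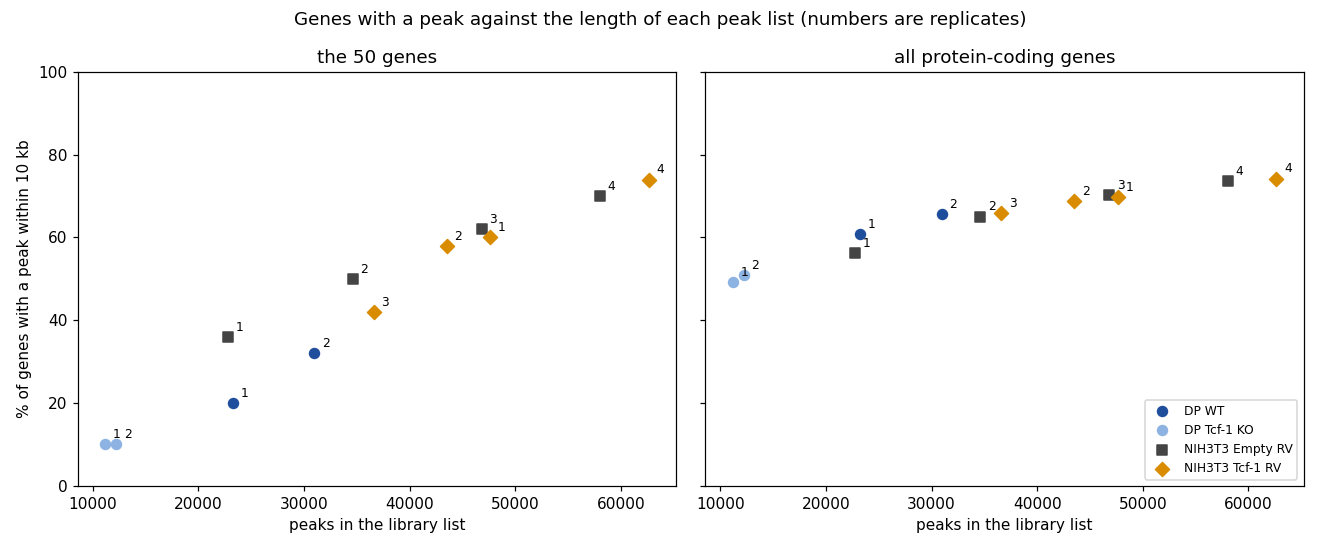
Share of genes with an ATAC peak within 10 kb (percent, vertical axis) against the number of peaks in the library's list (horizontal axis), for the 50 genes (left) and all protein-coding genes (right); each point is a library and carries its replicate number. In the left panel the share runs from 10% in the KO libraries to 74% in Tcf-1 RV replicate 4, and Tcf-1 RV replicate 3 and Empty RV replicate 3 (42% and 62%) have lists of 36583 and 46819 peaks.

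In DP thymocytes the genes were mostly closed. Of 50 genes, 9 (18%) had a peak within 10 kb in both WT libraries, where 60.5% of all genes met the rule, and 33 (66%) had no peak in any of the 4 DP libraries, against 33.8% of all genes. The 9 were Dlx1, Irx5, Lhx1, Lhx2, Lhx9, Nkx3-2, Pax5, Six5 and Tbx15, and 6 of them (all but Lhx2, Nkx3-2 and Pax5) were also open in every Empty RV library. Dlx1, Irx5 and Lhx2 had 2 peaks in each WT library, and the other 6 had 1. Another 7 genes had peaks in WT replicate 2 alone, which had the longer list, in which 16 genes had a peak, against 10 in WT replicate 1. With other windows the 9 became 5 (2 kb, 53.7% of all genes), 23 (50 kb, 73.8%) and 3 (the gene alone, 50.6%). With the widest peaks in equal lists they became 3 (43.3%). Of the promoters 1 of 44 (2.27%), that of Lhx2, was open in both WT libraries, against 40.1% of all promoters.

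The DP comparison asks which open regions differ in thymocytes without Tcf-1. At 5 genes both KO libraries had fewer peaks than either WT library, 5 of the 17 listed genes with any DP peak (29.4%). By the same rule 38.1% of 14487 genes were lower and 0.559% higher, so the share was near the background, and no listed gene was higher. With 2 against 2 libraries the exact permutation test cannot go below 0.333, and no gene of all passed or had an unadjusted p below 0.05. When each library was held to its 11171 widest peaks, the count of listed genes was 0, and 3.87% of all 21887 genes met the rule, against 25.2% of them with the whole lists. The count was 1 within 2 kb (19.1% of all genes) or in the gene alone (17.4%), and 15 within 50 kb (44.7%). It was 13 when replicate 1 of each group was left out (41.2%). The KO libraries also held fewer of the thymocyte markers (6 and 11 of 12) and of the fibroblast markers (1 and 2 of 14, against 4 and 10 in WT), and the part of these differences in the 5 genes was not tested.

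The 5 genes were these. Dlx1, a forebrain and branchial arch factor, had 2 peaks in each WT library and 0 in each KO library. Lhx2 had 2 and 2 against 0 and 1, Irx5 2 and 2 against 1 and 1, and Nkx3-2 and Tbx15 each 1 and 1 against 0 and 0. Near them, 6 regions were held by both WT and neither KO library, here called lost. Of all regions near the 50 genes these were 6 of 25, a smaller share than the 10032 of 31628 over the genome. At Lhx2 the region was chr2:38350917-38351282, over part of the second promoter printed above and inside H3K27me3 of NIH3T3. At Dlx1 there was one at chr2:71522858-71523205, 4908 bp outside the gene, and one at chr2:71529552-71529952, inside it. The Dlx1 window also holds Dlx2 and Metap1d. Irx5 lost chr8:92367081-92367324 and kept chr8:92355699-92356496 in all 4 libraries. The others were chr5:41768537-41768757 at Nkx3-2 and chr3:99233928-99234351 at Tbx15. Lhx1 and Lhx9 each had 1 peak in all 4 libraries, outside the gene, in windows that also hold Aatf and 2310009B15Rik. Pax5 had 1 and 1 in WT against 1 and 0 in KO. Tbx1, Tbx2 and Tbx18 had 0 and 1 peaks in WT and none in KO, and Tbx3, Tbx4, Tbx5 and Tbx20 none at all. Eomes had 2 and 3 against 0 and 1, and Tbx21 none.

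Tcf-1 summits in NIH3T3 were sparse at these genes. A summit lay within 10 kb of 11 of 50 (22%), where 48.4% of all genes had one. The count was 28 within 50 kb (72.1% of all genes), 7 in the gene alone (31.4%) and 6 for the higher-scoring summits (31.9%). They came to 27 summits, 1 of them shared by Dlx1 and Dlx2. Tbx15 had 9, Pax8, a thyroid and kidney factor, and Dlx1 4 each, and Dlx2, Lhx4 and Lhx8 2 each. Pax3, Pax7, Lhx5, Six4 and Tbx1 had 1. Of the 11 genes, 6 were called for H3K27me3 and 5 were not. No Nkx or Irx gene had one.

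The summits often lay outside ATAC peaks. Of the 27, 15 (55.6%) were in no peak of any NIH3T3 library, against 46.5% of all 40562 summits, and 3 (11.1%) were in a peak of all 8, against 15.1%. In H3K27me3 of both replicates lay 5 (18.5%), against 4.67% of all. Those 5 are at Pax3, Pax8 (2), Lhx4 and Lhx5. The highest authors' score was 66.8, above 90.7% of all summits, at chr2:24446003 inside Pax8, where no Empty RV and 2 Tcf-1 RV libraries had a peak. Pax8 had 1, 1, 1 and 1 peaks in Empty RV and 3, 1, 1 and 2 in Tcf-1 RV. Within Tbx15 the highest was 48.99, at chr3:99303712, where 2 Tcf-1 RV libraries but no Empty RV library had a peak over the summit itself. The merged region that holds this summit, chr3:99303157-99303909, had a peak from Empty RV replicates 2, 3 and 4 and from every Tcf-1 RV replicate. No source used here states the scale of the authors' score.

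At 3 places several readouts met. At Lhx4, of pituitary and motor neuron development, a summit at chr1:155742048 fell inside the printed promoter, 21 bp from the start and 33 bp from the letters ATCAAAG, which read CTTTGAT on the other strand. That promoter lay in H3K27me3 and had no ATAC peak in any of the 12 libraries. It was the only one of the 44 with a summit (2.27%, against 6.74% of all). At Dlx1, the region lost in KO thymocytes inside the gene held a summit at chr2:71529662 with a low score, 5.04, above 5.81% of all summits. Of the WT libraries, 1 had a peak over the summit itself and the other elsewhere in the merged region, and all 8 NIH3T3 libraries had a peak there. At Tbx15, the region lost in KO, about 6.00 kb outside the gene, held a summit at chr3:99233950, above 9.69% of all by score, and all 8 NIH3T3 libraries had a peak there as well. Both sites were thus open in fibroblasts with and without Tcf-1.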

How the data were processed

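ATAC-seq (12 libraries), H3K27me3 and H3K9me3 ChIP-seq (2 libraries each) and 1 pooled Tcf-1 ChIP-seq list were used, the files of 16 samples of 321 and a file of the series. No other library was analysed here. Tools named in the submitters' processing notes are MACS2, Bowtie2 2.2.9, Picard, Trim Galore, FastQC and STAR 2.5, with mm10 (GRCm38) among the builds; the step each tool did is not stated there. The authors deposited ATAC peaks as positions only. Their deposited histone files give, for each SICER island of a library, a read count for ChIP and for control, their ratio (fold) and a raw and adjusted p-value. The deposited summit list gives a score of unknown scale.

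The 50 genes, the other gene lists and the tests were chosen with earlier results of these data known. Genes (start and end) and promoters came from RefSeq GRCm38.p6. A gene was called for a mark when an island touched it in both replicates. ATAC peaks and summits were counted within 10 kb of each gene. Groups were compared by exact two-sided permutation of the mean peak number, adjusted by Benjamini-Hochberg over all genes with a peak, and by limma 3.58.1 (trend and robust settings, R 4.3.3) on log2(peaks + 1). These settings replaced the default ones, which had been fitted to both comparisons first, because the default ones did poorly on simulated data. ATAC regions were peaks of a comparison merged where they overlapped. On simulated data with 200 genes raised 3-fold, all with a mean of at least 3 peaks, limma recovered 62.5% in the NIH3T3 design and 0% in the DP design, where it was therefore not used. Few listed genes have so many peaks. Every gene of the list could be named, with values per library for those whose groups did not overlap, those highest or lowest in each readout and all Tbx genes. NIH3T3 libraries of the same number deviated together (correlations over merged regions 0.187, 0.189, 0.125 and 0.260). Libraries of different number and the same day tag in their file names also did. The permutation test and limma did not use this pairing, which entered only through the alternative with replicate pairs. The alternatives were other windows, stricter island rules, equal peak lists, single replicates left out and the replicate pairs; 0 genes of the list separated the NIH3T3 groups with the pairs either.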

Additional observations from a re-analysis of the deposited data

Results flagged for a closer look

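In 33 of the 100 sets of 4 NIH3T3 libraries (50 genes in 2 groups), 1 library stood apart from the other 3 by Dixon's criterion for 4 samples. Peak numbers are small whole numbers, so a set with 3 equal counts and 1 other is always singled out, and chance alone singles out about 1 set in 20 for continuous values. The libraries with the longest lists gave most of the high values. Tcf-1 RV replicate 4 (62639 peaks) stood apart at 11 genes. Dlx3, Dlx4, Dlx5 and Nkx6-1 had 1 peak there where the other 3 libraries had 0. Lhx1, Pax9, Lhx5 and Lhx8 had 2, and Dlx1 and Tbx18 had 3. Irx3 was the exception, a low value of 1 where the others had 2. Empty RV replicate 4 (58026 peaks) stood apart with high values at 7 genes: Nkx2-5, Six3 and Nkx6-1 with 1, Lhx1 and Tbx1 with 2, Dlx1 with 4 and Six5 with 5. The shortest lists of each group gave low values: in Empty RV replicate 1 (22778 peaks) 0 at Tbx4, Tbx5, Lhx8 and Nkx3-2 and 1 at Nkx2-2, with Irx3 at 2 the exception, and in Tcf-1 RV replicate 3 (36583 peaks) 0 at Nkx2-1, Six6, Lhx2, Tbx5 and Nkx6-2. The others were Irx2 with 3 in Empty RV replicate 2 and in Tcf-1 RV replicate 1, Lhx6 with 3 in Empty RV replicate 3, and Pax4 with 0 in Tcf-1 RV replicate 2. The part of list length in these values was not tested.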

How the results depend on the processing

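The 34 genes called for H3K27me3 became 26 to 32 (12.3% to 17.8% of all genes) with at least 50% cover, an island at either gene end or a fold of at least 2. From a single replicate they became 34 to 35 (26.5% and 26.6%). For H3K9me3 the 13 became 4 with at least 50% cover (5.04% of all genes) and 8 with an island at either end (9.47%). From a single replicate they became 14 (24.9% and 22.9%). The 18 genes open in every Empty RV library became 31 within 50 kb (73.4% of all genes), and 18 to 23 without 1 replicate, the highest without replicate 1 (64.3%). The 9 open in both WT DP libraries became 5 within 2 kb (53.7% of all genes), 23 within 50 kb (73.8%) and 3 in the gene alone (50.6%). They became 3 with equal lists of the widest peaks (43.3%), and 10 to 16 without 1 replicate (60.8% and 65.6%), the highest without replicate 1. The 5 with fewer peaks in both KO libraries became 1 within 2 kb (19.1% of all genes), 15 within 50 kb (44.7%), 1 in the gene alone (17.4%) and 0 with equal lists (3.87%). Without 1 replicate they became 6 to 13 (31.9% and 41.2%), the highest again without replicate 1. The 11 with a Tcf-1 summit became 28 within 50 kb (72.1% of all genes), 7 in the gene alone (31.4%) and 6 with the higher-scoring summits alone (score above the median, 31.9%). The 0 genes higher in Tcf-1 RV became 6 within the day 2 tag (22% of all genes) and stayed 0 under every other alternative run, as did the 0 lower ones and the 0 higher in KO. A wider or narrower window changes the sequence searched, and causes were otherwise not tested. With the replicate block (every pair of the same number differing one way) the counts were 0 higher and 0 lower in Tcf-1 RV, and 5 lower and 0 higher in KO. In DP the shared number is not a pairing (correlation -0.05). The difference in mean peak number turned sign at 6 genes within 50 kb and at 8 with equal lists in NIH3T3, and at 2 with equal lists in DP. limma was not used for DP, because it failed on simulated data. The ATAC lists give no depth, so a gene without a peak may be open below what was called.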
